A study of Mus musculus with 6 samples.

Results

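The prostaglandin and prostacyclin genes described here were 10 of the 54532 genes in the tables: the cyclooxygenases Ptgs1 and Ptgs2, the terminal synthases Ptges, Ptgds and Ptgis, the degrading enzyme Hpgd, and the receptors Ptger2, Ptger3, Ptger4 and Ptgir. They were matched by gene name and joined by gene identifier to the counts and to the FPKM values (fragments scaled by gene length and library depth). Ptgis was chosen from its higher counts in the Ni libraries of these same data, so its difference is given as a description with no test. The other 9 were listed as enzymes and receptors of its pathway, and all 10 are accounted for.

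The libraries were described as from primary wild-type mouse bone marrow mesenchymal stem cells (BMSCs), a name for plastic-adherent marrow stromal cells, grown in MEM α. All of the cultures were then kept for 7 days in osteogenic medium. By the labels this medium held dexamethasone at 100 nM, β-glycerophosphate at 10 mM and ascorbic acid at 50 μg/mL, while the study's methods give a lower dexamethasone concentration. The Ni group (n = 3) also received 0.1 μM nickel ions and the control group (n = 3) received vehicle, and the replicates were described as independent, without the age, sex or strain of the donor mice in the sources used here.

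Prostanoids are made from arachidonic acid, which phospholipases free from membranes. The cyclooxygenases convert it to prostaglandin H2, and each terminal synthase makes 1 product from that shared intermediate: Ptges makes prostaglandin E2, Ptgds makes prostaglandin D2 and Ptgis makes prostacyclin. Hpgd inactivates prostaglandin E2, Ptger2, Ptger4 and the prostacyclin receptor Ptgir raise cyclic AMP, and Ptger3 lowers it. In bone, prostaglandin E2 is known to act on osteoblasts and, through them, on osteoclast formation. Ptgs2 is the inducible cyclooxygenase and glucocorticoids such as dexamethasone repress it.

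Total counts ran from 16101033 to 18642504 per library, and 14624 genes had enough counts to be tested. Across all of them, the quasi-likelihood test of edgeR, adjusted by Benjamini-Hochberg, called 0 genes at an adjusted p under 0.05 (0% of the genes tested), and the smallest adjusted p was 0.185. At an unadjusted p under 0.05, 1110 genes were higher and 853 lower with Ni. Control replicate 3 stood apart from its group: its mean correlation distance was 0.0220 to the other controls and 0.0131 to the Ni libraries. Of the Ni libraries, replicate 2 lay nearest the controls, at 0.0180 to them and 0.0159 to the other Ni libraries. Fold changes, ratios and list counts are also given without control replicate 3. That library was singled out from these same data for lying near the Ni libraries, so leaving it out favours a wider difference. Without it 2283 genes passed an adjusted p of 0.05, and its adjusted p values are descriptions and no support. All 15 macrophage markers were detected, and their summed level was 27449 to 32587 CPM (counts scaled to a common library total by edgeR) in the controls and 27542 to 28252 CPM in the Ni libraries. Lyz2 alone gave 11680 ± 2980 and 11862 ± 941 CPM of it. At an unadjusted p under 0.05, 0 of these 15 markers were higher with Ni and 3 were lower, which were Itgam, Tyrobp and Ptprc, at log2 fold changes of −0.40, −0.45 and −0.36. Of the 15, 11 were below 0, and their median was −0.16. The 10 stromal markers summed to 5286 to 8773 CPM in the controls and 10300.0 to 12735 CPM with Ni. Of these sums, Col1a2 gave 4286 ± 1226 and 8413 ± 1126 CPM, and Col3a1 gave 1642 ± 488 and 2264 ± 75.2 CPM. At an unadjusted p under 0.05, 6 of the 10 stromal markers were higher and 0 lower. Of their log2 fold changes, 9 were above 0, at a median of 0.63, with Pdgfra at 0.07 and Thy1 at −0.07. The 10 osteoblast markers summed to 1073 to 2961 CPM in the controls and 3274 to 6536 CPM with Ni, and all 10 were higher at an unadjusted p under 0.05. Most of these sums was Ibsp, at 1439 ± 968 and 4666 ± 1646 CPM. In both lists the highest control was replicate 3. Endothelial markers summed to 54.2 to 85.2 CPM in the controls and 52.0 to 58.0 CPM with Ni, and adipocyte markers to 57.4 to 78.9 and 71.3 to 87.4 CPM. Mast cell and neutrophil markers, with Fcer1a, Ms4a2, S100a9, Ltf and Ngp at 0, summed to at most 0.840 and 3.24 CPM. The macrophage sum was above the stromal sum in every library, so the levels below are those of a culture with macrophage RNA and not of stromal cells alone. Which cells held the transcripts described was not tested. In such bulk samples, fewer cells of a type and less RNA per cell cannot be told apart.

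The levels of the 10 genes spanned a wide range. By mean FPKM over the 6 libraries, which is scaled by gene length and so can be compared between genes, Hpgd was highest at 64.7 (range 37.5 to 104). Its range lay apart from that of Ptgis, the next, at 11.0 (6.30 to 18.3). Ptgis, Ptgs1 at 7.51 (5.41 to 9.24), Ptger4 at 6.47 (5.13 to 8.64), Ptgs2 at 5.78 (2.54 to 8.19) and Ptges at 5.73 (3.77 to 7.10) followed, each overlapping its neighbour. Ptger2 at 1.63 and Ptgir at 0.834 overlapped each other and lay below Ptges. Ptger3, at 0.156, was lower than Ptgir in every library, and Ptgds was listed at 0 in all 6. Among the genes tested, Ptgis lay at percentile 69.9 of mean FPKM, Ptgs1 at 60.2, Ptger2 at 26.6 and Ptger3 at 1.85. The order of the means within the groups differed for the middle genes: Ptgs1 and Ptger4 were above Ptgis in the controls, whereas Ptgis and then Ptgs2 followed Hpgd with Ni.

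**Figure D1:**
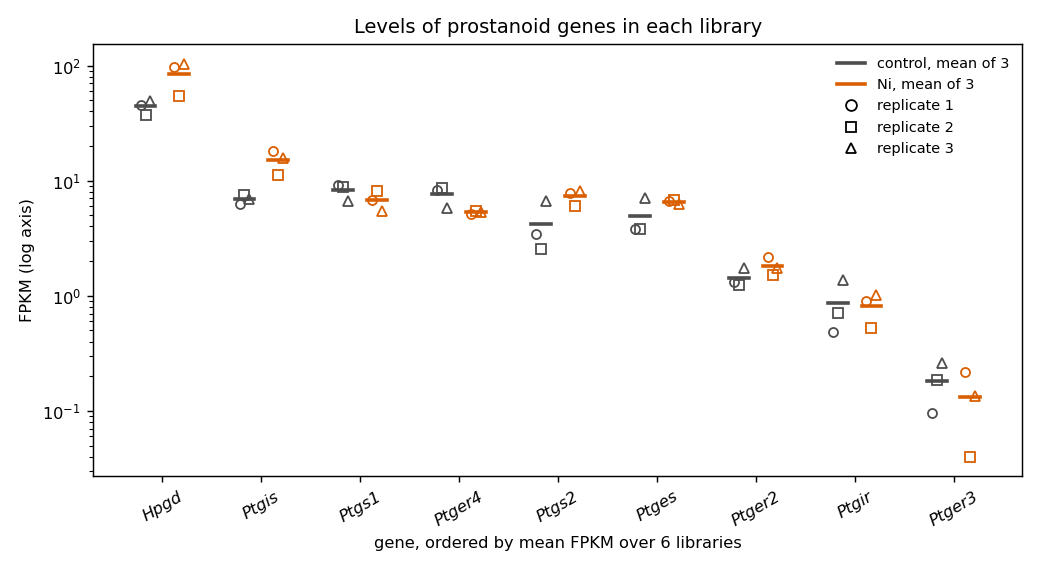
Level of each gene in FPKM (log axis) in each of the 6 libraries, with controls and Ni libraries as separate points and the group mean as a line. Hpgd lies between 37.5 and 104 FPKM, above all other genes, and Ptger3 between 0.0400 and 0.261.

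In FPKM, the constitutive cyclooxygenase Ptgs1 averaged 8.22 ± 1.34 in the controls and 6.80 ± 1.40 with Ni, and the inducible Ptgs2 averaged 4.22 ± 2.18 and 7.35 ± 1.15 (SD, n = 3 each). Ptgs2, the inducible enzyme (chromosome 1, 150100031 to 150108227, plus strand, GRCm38), gave 15.8, 11.7 and 30.9 CPM in control replicates 1 to 3 and 35.9, 28.0 and 37.7 CPM in Ni replicates 1 to 3. Its control replicate 3 lay above Ni replicate 2, so the groups overlapped. The mean was 19.5 ± 10.1 CPM in the controls and 33.8 ± 5.16 CPM with Ni (SD, n = 3 each), and the log2 fold change of 0.80 ± 0.33 (SE) had an adjusted p of 0.367 by edgeR's quasi-likelihood test. Without control replicate 3 it was 1.30 ± 0.17 (edgeR adjusted p = 0.000334), and without control replicate 2 it was 0.54 (edgeR adjusted p = 0.830). Ptgs1, the constitutive enzyme, gave 36.1, 34.1 and 26.3 CPM in the controls and 26.4, 32.2 and 21.1 CPM with Ni. The means were 32.2 ± 5.21 and 26.6 ± 5.57 CPM, the log2 fold change was −0.28 ± 0.17 (SE) with a 95% interval from −0.66 to 0.11, and the groups overlapped (edgeR adjusted p = 0.506). It was −0.40 without control replicate 3 (edgeR adjusted p = 0.110), and over all omissions of 1 library it ran from −0.43 to −0.13.

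The RefSeq promoter of Ptgs2 is shown because this gene had the largest move in control replicate 3 beside Ptgir, at 1.17 on the log2 scale over the mean of the other 2 controls, and that of Ptges because it is the next enzyme on the prostaglandin E2 branch. Each run covers 250 bases before the RefSeq start and 50 after it on GRCm38.p6, on the strand of the gene. Capitals mark the CRE half-site (TGACG), the C/EBP motif (TTGCNNAA) and the GC box (GGGCGG), searched on both strands.
Ptgs2, chr1:150099781-150100080, plus strand: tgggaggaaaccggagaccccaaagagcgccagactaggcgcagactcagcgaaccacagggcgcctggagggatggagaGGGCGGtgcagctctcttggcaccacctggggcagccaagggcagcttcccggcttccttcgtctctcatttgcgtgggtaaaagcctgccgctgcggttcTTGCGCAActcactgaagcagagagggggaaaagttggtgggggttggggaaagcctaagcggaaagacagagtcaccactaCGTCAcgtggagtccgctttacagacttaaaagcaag
Ptges, chr2:30903248-30903547, minus strand: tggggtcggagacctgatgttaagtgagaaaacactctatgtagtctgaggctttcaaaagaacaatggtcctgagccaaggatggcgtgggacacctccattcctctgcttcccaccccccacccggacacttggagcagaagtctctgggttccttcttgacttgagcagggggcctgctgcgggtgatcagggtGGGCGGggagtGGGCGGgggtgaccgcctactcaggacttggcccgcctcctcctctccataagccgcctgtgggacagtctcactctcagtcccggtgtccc
In the Ptgs2 run the C/EBP motif began at −69 from the start, the GC box at −170 and the CRE half-site at 13, where it overlapped an E-box (CACGTG) beginning at 16. The Ptges run held 2 GC boxes, at −53 and −42, and none of the other letters searched. Its RefSeq start lies within the gene span of the count table. Among the 32851 promoters of this table, 20.8% held the CRE half-site, 10.8% the C/EBP motif, 35.7% the GC box and 7.15% the E-box, so these matches are descriptions and not binding sites.

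Among the terminal synthases, Ptges gave 14.9, 15.2 and 28.2 CPM in the controls and 26.1, 26.8 and 24.9 CPM with Ni. Control replicate 3 was higher than each of the 3 Ni libraries, whereas the other 2 controls were lower than all of them. The gene lies on the minus strand of chromosome 2 (30889471 to 30929863). The means were 19.4 ± 7.59 and 25.9 ± 0.990 CPM, and the log2 fold change was 0.42 ± 0.23 (SE), with an adjusted p of 0.459 by edgeR. Without control replicate 3 it was 0.79 ± 0.12 (edgeR adjusted p = 0.00110), and without control replicate 1 or 2 it was 0.26 or 0.27 (edgeR adjusted p = 0.824 and 0.892). Ptgds had 0 counts in all 6 libraries, which allows a level of up to 0.163 to 0.189 CPM per library at 3 counts, covering counting error only.

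Ptgis, the prostacyclin synthase chosen for its values here, gave 16.3, 19.6 and 18.0 CPM in the controls and 47.0, 29.2 and 40.8 CPM with Ni. Every Ni library was above every control. The means were 18.0 ± 1.65 and 39.0 ± 9.02 CPM (SD, n = 3 each), which is 2.17-fold, and the fitted log2 fold change was 1.12. Control replicate 3 differed from the mean of the other controls by 0.01 on the log2 scale for this gene, against 1.17 for Ptgs2 and 0.90 for Ptges. Choosing Ptgis for its rise here favours a gene that is low in every control, so this contrast cannot be read as a trait of Ptgis. The 10 markers of smooth muscle and pericytes, cells known to make prostacyclin, summed to 811, 852 and 1562 CPM in the controls and 1480, 1378 and 1417 CPM with Ni. These groups overlapped through control replicate 3, and Acta2 alone gave 902 ± 386 and 1201 ± 49.9 CPM. Of the 10 markers, 9 had log2 fold changes above 0, against 48.1% of all genes tested. At an unadjusted p under 0.05, 7.59% of all genes tested were higher, and so was 1 of the 10 markers. This was Cspg4, a pericyte proteoglycan, at 7.25 ± 1.43 against 16.8 ± 3.77 CPM (log2 fold change 1.21 ± 0.21, SE, edgeR adjusted p = 0.185), with every Ni library above every control. With control replicate 3 left out, 7 of the 10 were higher at an unadjusted p under 0.05, where 15.2% of all genes tested were. The part of such cells in the Ptgis difference was not tested. Its exons lie on the minus strand of chromosome 2 (167191805 to 167240604, GRCm38). Of their 2567 bases, 156 overlap 1110018N20Rik on the opposite strand, which had at most 2 counts in any library. The genes whose centred log2 CPM lay nearest to that of Ptgis over the 6 libraries were 1700048O20Rik, Epha2, Tspan11, Sorcs1 and Ramp1, at a root mean square difference of 0.141, 0.147, 0.148, 0.150 and 0.160. Epha2 encodes an ephrin receptor and Ramp1 a receptor-activity-modifying protein. These distances describe likeness in 6 libraries that share the Ni contrast.

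Hpgd, which inactivates prostaglandin E2, was the most abundant of the 10 by FPKM and had higher values with Ni. The gene lies on the plus strand of chromosome 8 (56294585 to 56321043), and none of its 1683 exon bases overlaps another gene. It gave 76.7, 63.6 and 84.4 CPM in the controls and 164, 92.7 and 175 CPM with Ni, so that every Ni library was above every control, with Ni replicate 2 the nearest. The means were 74.9 ± 10.5 and 144 ± 44.8 CPM, and the log2 fold change was 0.94 ± 0.23 (SE), with a 95% interval from 0.41 to 1.48 and an unadjusted p of 0.00363 by edgeR, which did not pass adjustment (adjusted p = 0.262). It passed without Ni replicate 2, at 1.18 (edgeR adjusted p = 0.0253), where 0.0866% of all genes tested passed, and not without control replicate 3, at 1.04 (edgeR adjusted p = 0.116). Its nearest genes over the 6 libraries were Mme and Fap, both cell-surface peptidases, at a root mean square difference of 0.0520 and 0.0932, and then Slc38a4, Them4 and Irx2, at 0.113 to 0.118. Hpgd and the summed osteoblast markers, as given above, were both higher in each Ni library than in any control, and the part of cell composition in this difference was not tested.

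The receptor levels differed in direction. Ptger4, the more abundant of the cyclic AMP-raising prostaglandin E2 receptors, gave 55.8, 57.9 and 39.1 CPM in the controls and 34.2, 36.9 and 35.9 CPM with Ni. Every Ni library was below every control, with control replicate 3 the nearest. The means were 50.9 ± 10.3 and 35.6 ± 1.36 CPM, and the log2 fold change was −0.51 ± 0.14 (SE), with a 95% interval from −0.84 to −0.19, an unadjusted p of 0.00520 and an adjusted p of 0.283 by edgeR. Without control replicate 3 it was −0.67 ± 0.10 (edgeR adjusted p = 0.000848), and over the other omissions of 1 library it ran to −0.41, without control replicate 2 (edgeR adjusted p = 0.830). Of the 6648 exon bases of Ptger4 (chromosome 15, 5206661 to 5244187, minus strand), 1097 overlap other genes on the opposite strand. Gm15937, one of them, had 0 counts in all libraries, and Ttc33 had a log2 fold change of 0.01 ± 0.15 (SE). The libraries were prepared with a kit that does not mark strand, so overlapping reads cannot be told apart.

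Ptger2, the second cyclic AMP-raising receptor, gave 6.94, 6.49 and 9.18 CPM in the controls and 11.4, 7.94 and 9.11 CPM with Ni. The groups overlapped, and the log2 fold change was 0.33 ± 0.20 (SE), with an adjusted p of 0.491 by edgeR. It was 0.50 without control replicate 3 (edgeR adjusted p = 0.124), and without Ni replicate 1 it was 0.18. Ptgir, the prostacyclin receptor, gave 1.64, 2.39 and 4.62 CPM in the controls and 2.99, 1.78 and 3.37 CPM with Ni. Its groups overlapped too, with a log2 fold change of −0.08 ± 0.40 (SE), a 95% interval from −0.98 to 0.82 and an adjusted p of 0.952 by edgeR. It was 0.44 without control replicate 3 and 0.15 without Ni replicate 2. Ptger3, the receptor that lowers cyclic AMP, had few counts, at 10, 17 and 25 counts in the controls and 23, 4 and 14 with Ni. Its log2 fold change was −0.45 ± 0.59 (SE), with an interval from −1.77 to 0.87 (edgeR adjusted p = 0.779). It was −0.08 without control replicate 3, and ran from −1.02 without Ni replicate 1 to −0.03 without Ni replicate 2.

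Besides Ptgis, 8 of the 10 genes were tested. At an unadjusted p under 0.05, 2 were higher, Hpgd and Ptgs2, where 7.59% of all genes tested were higher, and 1 was lower, Ptger4, where 5.83% were lower. Hpgd was the only 1 of the 8 whose 3 Ni libraries were all above the controls, against 7.97% of all genes tested, and Ptger4 the only 1 all below, against 6.71%. Of the 8 log2 fold changes, 4 were above 0, against 48.1% of all genes, and their median was 0.13, against −0.01 for all genes tested. Without control replicate 3, 4 were higher at an unadjusted p under 0.05, against 15.2% of all genes tested, and 2 were lower, against 12.2%. In that setting 3 passed an adjusted p of 0.05, which were Ptgs2, Ptges and Ptger4, and the share of all genes called was again 15.2%. With no filter on low counts Hpgd and Ptger4 passed, against 3.97% of all genes tested, and with DESeq2 Hpgd passed, against 1.02%. Over all alternatives, the adjusted p ranged from 3.49e-08 to 0.815 for Hpgd, from 0.000334 to 0.830 for Ptgs2, from 0.00110 to 0.892 for Ptges and from 0.000848 to 0.830 for Ptger4.

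**Figure D2:**
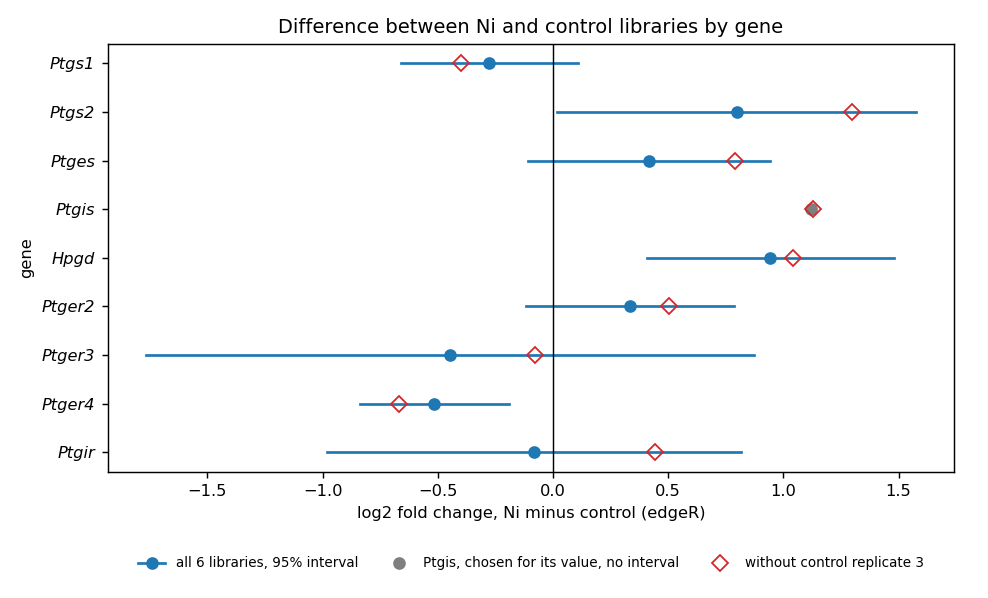
Log2 fold change (Ni minus control) of the 9 genes with a fit, with 95% intervals over all 6 libraries and open diamonds for the fit without control replicate 3. Ptgis is drawn without an interval, and Ptgs2 lies at 0.80 with all libraries and 1.30 without that control.

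**Figure D3:**
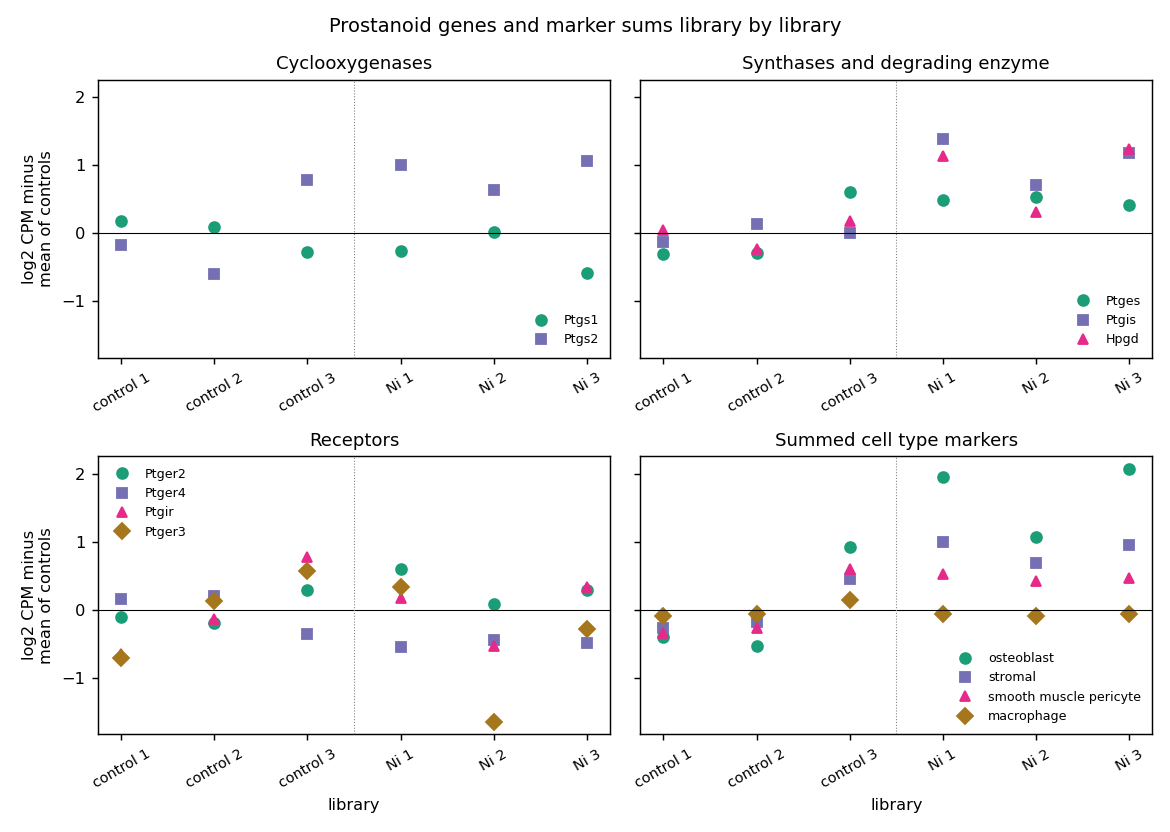
Log2 CPM of each gene minus its control mean in each library, for cyclooxygenases, synthases with Hpgd, and receptors, with summed cell type markers in the last panel. Ptgs2 in control replicate 3 lies beside the Ni libraries, whereas Ptgis, chosen for its rise in these data, does not.

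Control replicate 3 differed from the other controls to an unequal extent across the genes. On the log2 scale it lay above the mean of the other 2 controls by 1.17 for Ptgs2, 1.17 for Ptgir, 0.90 for Ptges, 0.87 for Ptger3, 0.45 for Ptger2 and 0.27 for Hpgd, and its difference was −0.54 for Ptger4 and −0.42 for Ptgs1. For Ptgs2, Ptges, Hpgd, Ptger2, Ptger4 and Ptgs1 this is the same direction as the difference of the Ni group from the controls.

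Ratios within a library do not depend on its depth. The ratio of Ptgs2 to Ptgs1 in FPKM was 0.372, 0.291 and 0.997 in the controls and 1.15, 0.736 and 1.51 with Ni, a difference of 1.19 on the log2 scale (two-sided exact permutation test, p = 0.2, adjusted over 3 ratios 0.3). Control replicate 3 was above Ni replicate 2. The ratio of Ptges to Hpgd was 0.0832, 0.102 and 0.143 in the controls and 0.0680, 0.124 and 0.0607 with Ni, a difference of −0.42 (exact permutation p = 0.3, adjusted 0.3). The ratio of Ptger4 to Ptger2 was 6.29, 6.97 and 3.32 in the controls and 2.34, 3.63 and 3.07 with Ni, a difference of −0.83 (exact permutation p = 0.2, adjusted 0.3). For none of the 3 did the groups separate, and 3 against 3 libraries cannot give a p below 0.1. When control replicate 3 was left out, the differences were 1.72 for Ptgs2 to Ptgs1 and −1.16 for Ptger4 to Ptger2, where the groups separated (exact permutation p = 0.1 each, the smallest that 2 against 3 can give), and −0.21 for Ptges to Hpgd (exact permutation p = 0.6). Over all omissions of 1 library they ran from 0.83 to 1.72, from −1.16 to −0.62 and from −0.73 to −0.21.

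**Figure D4:**
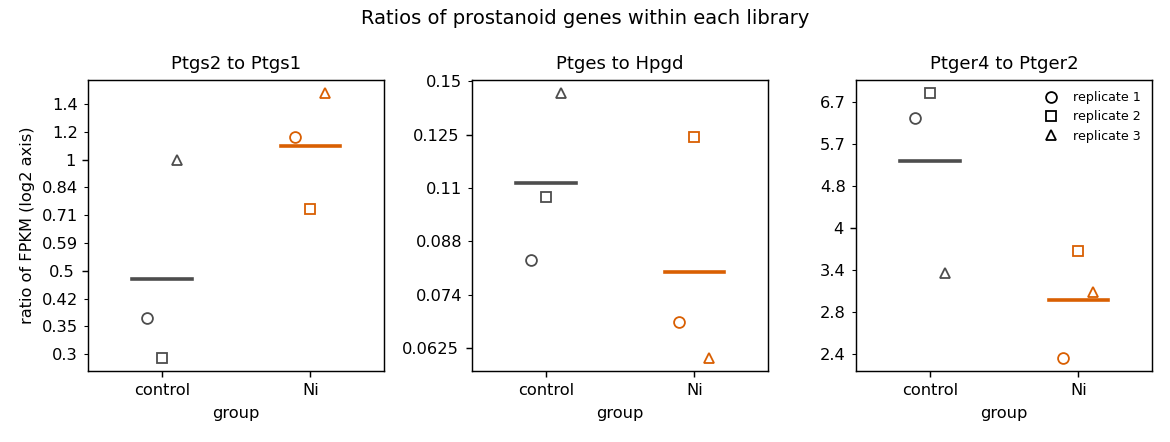
Ratios of FPKM (log2 axis) of Ptgs2 to Ptgs1, Ptges to Hpgd and Ptger4 to Ptger2 in each library, with group means as lines on the log2 scale. For Ptgs2 to Ptgs1, control replicate 3 at 0.997 lies among the Ni libraries at 0.736 to 1.51.

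The rest of the pathway was read from 5 lists of 103 genes, of which 101 were found in the table and 82 were tested. At an unadjusted p under 0.05, 6 were higher and 12 lower with Ni, where 7.59% and 5.83% of all genes tested were, and 0 passed adjustment by edgeR. Leaving out control replicate 3, 16 were higher and 22 lower, where 15.2% and 12.2% of all genes were. In that setting 26 passed adjustment, where 15.2% of all genes tested did. Among the 20 tested of 23 other prostanoid genes, Ptgfrn, which encodes a regulator of the prostaglandin F2α receptor, was higher, at 33.4 ± 12.0 against 50.1 ± 2.44 CPM (log2 fold change 0.59 ± 0.22, SE, adjusted p = 0.337 by edgeR). Abcc4, a prostanoid exporter, and Ptgfr, that receptor, were lower, at log2 fold changes of −0.37 and −0.28. Tbxas1, the thromboxane synthase, gave 152 ± 8.39 against 133 ± 6.70 CPM. Ptges3 and Hpgds had the highest mean FPKM of the list, at 39.8 and 32.2, and the median log2 fold change of the list was −0.03.

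Among the 14 tested genes of arachidonate supply, Mgll, the monoacylglycerol lipase, was higher, at 48.1 ± 15.1 against 81.1 ± 8.58 CPM (log2 fold change 0.75 ± 0.20, SE, adjusted p = 0.275 by edgeR). Pla2g12a was also higher, at 7.94 ± 1.34 against 10.9 ± 0.586 CPM. Acsl4, which loads arachidonate onto coenzyme A, was lower, at 149 ± 17.2 against 119 ± 4.89 CPM, and Pla2g6 at 16.0 ± 2.56 against 11.8 ± 2.10 CPM. Pla2g7 and Pla2g15, listed as phospholipases, had the highest mean FPKM, at 218 and 113, which does not show that they free arachidonate here. The cytosolic phospholipase Pla2g4a had a mean FPKM of 12.1 and a log2 fold change of 0.39 ± 0.20 (SE, edgeR adjusted p = 0.433). The list's median log2 fold change was 0.05. The list of leukotriene genes also held Ephx2, an epoxide hydrolase gene, and cytochrome P450 genes such as Cyp2j6, so it is wider than the leukotriene branch. Of the 11 tested genes of this list, 1 had an unadjusted p under 0.05. This was Ltc4s, the leukotriene C4 synthase, which was higher at 10.5 ± 1.44 against 13.8 ± 1.83 CPM. Cyp2j6, Ltb4r1 and Alox5, the 5-lipoxygenase, had log2 fold changes of 0.42, −1.07 and 0.31, none past an unadjusted 0.05. Ltb4r1 had few counts, at 15, 15 and 10 in the controls and 5, 2 and 13 with Ni. Alox5ap, the activating protein of Alox5, had the highest mean FPKM of the list, at 138, and the median of the list was 0.11.

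Among 16 tested genes known to respond to cyclic AMP, Tnfrsf11b, the decoy receptor osteoprotegerin, was higher at 65.9 ± 14.5 against 92.6 ± 11.4 CPM, although the groups overlapped, and Pde4d was the other of the 2 higher genes. Nr4a3, Tnfsf11 and Pde4b were lower. Nr4a3, an immediate early nuclear receptor, was counted 26, 27 and 11 times in the controls against 4, 2 and 5 times with Ni (log2 fold change −2.59 ± 0.57, SE, edgeR adjusted p = 0.212). Tnfsf11, the osteoclast factor RANKL, gave 6.07, 6.11 and 4.92 CPM against 2.55, 4.26 and 2.82 CPM (edgeR adjusted p = 0.293). Junb and Cited2 had the highest mean FPKM, at 82.7 and 69.9, and the list's median was −0.08. Of the 21 regulators of Ptgs2, 0 were higher and 5 lower, Tnf, Relb, Nfkb2, Nfkb1 and Myd88, where 7.59% of all genes tested were higher and 5.83% lower. With control replicate 3 left out, 2 were higher and 10 lower, where 15.2% and 12.2% of all genes were. Beside this list, 3 of the 15 macrophage markers were lower and 0 higher with all libraries, at a median of −0.16, and 6 were lower and 2 higher without control replicate 3. The part of such cells in these differences was not tested. Tnf, which encodes a cytokine, gave 95.1, 97.6 and 65.0 CPM in the controls and 50.2, 63.4 and 54.7 CPM with Ni (log2 fold change −0.62 ± 0.16, SE, adjusted p = 0.262 by edgeR). Every Ni library was below every control for 4 of the 21, Tnf, Relb, Nfkb1 and Il1b, where 6.71% of all genes tested were. Every Ni library was above every control for 1, Il1a, where 7.97% of all genes tested were. Il1a had few counts, at most 19 in a library. The median of this list was −0.19, and Anxa1, a glucocorticoid-induced protein, and Cebpb had its highest mean FPKM, at 141 and 116.

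**Figure D5:**
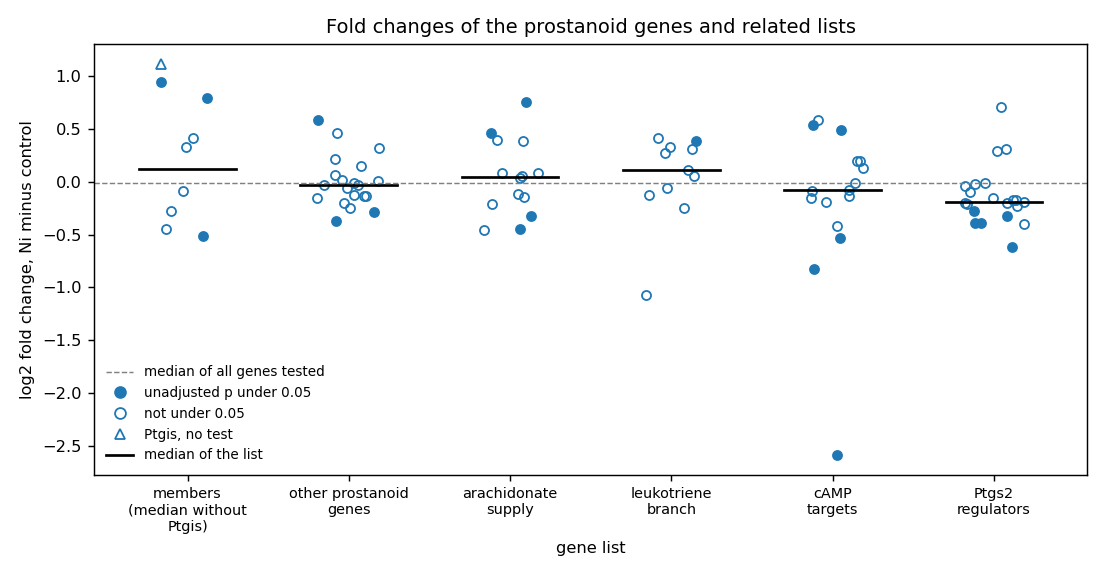
Log2 fold changes (Ni minus control) of the tested genes of each list, filled where the unadjusted p was under 0.05, with the median of each list as a line and that of all genes as a dashed line. The Ptgs2 regulators have a median of −0.19, with 5 filled points below 0.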

How the data were processed

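The authors deposited counts per gene and FPKM values made from them, with gene length, for 6 libraries of messenger RNA prepared with a kit that does not mark strand. The labels name GRCm38, whereas the aligner, counter and their settings were not given in the sources used here. The deposited FPKM values differed from count over length by at most 3.29e-07 after 1 factor per library, and the deposited gene lengths of the 10 genes are their exon bases. Coordinates were compared with GENCODE M21, where 53585 of 54532 genes had the same ones, all 10 described genes included. The deposited counts were tested with edgeR 4.0.16 in R 4.3.3 (filterByExpr, TMM, quasi-likelihood, Benjamini-Hochberg over 14624 genes), after a test on simulated data. The genes named in each list were the 4 with the smallest unadjusted p and the 2 with the highest mean FPKM, while Pde4d and Myd88 complete the counts. Ephx2, Pla2g4a, Il1a and Il1b were named besides. Genes nearest to Ptgis and Hpgd were the 5 with the smallest distance. The genes described and the lists were chosen with earlier results of these data known. Alternatives were other scalings, filters, DESeq2 1.42.0, limma 3.58.1 on log2(FPKM + 1) and log2(FPKM + 0.1), a replicate block, a gene-length trend and omission of each library. The result of 1 marker list is not reported here.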

Additional observations from a re-analysis of the deposited data

How the results depend on the processing

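Of 143 log2 fold changes of these genes under an alternative, 141 kept their direction. The 143 include 16 of Ptgis, which was chosen for its rise here, so that all 16 kept their direction is no support. Both reversals were of Ptgir, at 0.44 without control replicate 3 and 0.15 without Ni replicate 2, in a range of −0.37 to 0.44 on leaving out a library. Genes passing an adjusted p of 0.05 numbered 1027 with no filter on low counts, 264 with DESeq2, and 0 to 2283 when 1 library was left out. Genes higher at an unadjusted p under 0.05 numbered 1768 with no filter and 599 to 2285 on leaving out a library, and genes lower numbered 1289 and 269 to 1840. Among the genes described other than Ptgis, 1 was higher with library totals only and 1 to 4 on leaving out a library, 2 were lower with no filter and 1 to 2 on leaving out a library, and 2 passed adjustment with no filter, 1 with DESeq2 and 0 to 3 on leaving out a library. With no filter, 5 other prostanoid genes and 3 of the leukotriene list had an unadjusted p under 0.05, where 11.8% of all genes tested did. The medians of arachidonate supply and cyclic AMP targets were then −0.10 and 0.000418. Without control replicate 3, an omission chosen for the lists after seeing the data, 27.4% of all genes tested had an unadjusted p under 0.05. In the lists, 7 of 20 other prostanoid genes, 7 of 14 of arachidonate supply and 4 of 11 of the leukotriene list did. So did 8 of 16 cyclic AMP targets and 12 of 21 Ptgs2 regulators, whose median was −0.28. The log2 fold change of Ptger3 ran from −1.02 to −0.03 on leaving out a library. The order of mean FPKM differed for 5 genes over the controls alone and for 4 over the Ni libraries alone. The causes were not tested. Ptger3 had no value with at least 10 counts in every library.

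Same-numbered libraries correlated at 0.0104, 0.256 and 0.138 in their deviations from the group means, and 4 of the 6 libraries correlated best with their own number. With 3 libraries per group, this does not settle whether the replicate numbers mark pairs. The main fit took the libraries as unpaired. A replicate block gave 315 genes at an adjusted p under 0.05, which was 2.15% of all genes tested. Among the genes described other than Ptgis, 1 passed, Hpgd (edgeR adjusted p = 0.0167). Before adjustment, 2 of them were under 0.05 and higher, and 2 were under 0.05 and lower. Of all genes tested, 1496 were so higher and 1273 so lower, together 18.9%. With the gene-length trend removed and the block together, 270 genes passed adjustment, or 1.85%, and 1 of those described. Before adjustment, 3 of those described were then higher and 2 lower, where 1491 and 1289 of all genes tested were, together 19.0%.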
